A study of Mus musculus with 16 samples.

Results

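The phase II conjugation enzymes described here are the genes of the glutathione S-transferases (GST), microsomal glutathione S-transferases (MGST), UDP-glucuronosyltransferases (UGT) and cytosolic sulfotransferases (SULT). They were found by gene symbol in a table of 17003 genes, where 61 symbols matched, and 45 reached a mean of 0.1 FPKM across the 16 mouse livers and were kept. FPKM is the number of fragments per kilobase of transcript, scaled to the size of the library, so that levels can be set beside each other between genes. Of these 45, 20 encode cytosolic GSTs or the mitochondrial Gstk1, 2 encode MGSTs, 7 lie in the Ugt1a locus, 8 belong to the UGT2 family and 8 are SULTs. The livers came from fed male mice aged 8 weeks on normal chow, with 1 library per mouse. The 8 Fgl1 LWT mice carry floxed Fgl1, the gene of a secreted liver protein, without CRE. The 8 Fgl1 LKO littermates carry the same floxed alleles with CRE under the albumin promoter, which cuts exon 2 out of Fgl1 in hepatocytes. Other liver cells keep the whole gene, and fewer cells of a type and less RNA per cell cannot be told apart in whole liver.

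Conjugation makes fat-soluble compounds easier to excrete. GSTs join glutathione to electrophiles, UGTs transfer glucuronic acid from UDP-glucuronic acid to bilirubin, steroids, bile acids and drugs, and SULTs transfer sulfate from its activated donor PAPS to phenols, steroids and bile acids. Hepatocytes hold most of this capacity, and the conjugates leave them through transporters into bile or blood.

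Many of these genes arose by local duplication, so the reads of some rows cannot be told apart. The 7 Ugt1a genes lie on the plus strand of chromosome 1 (GRCm39, GENCODE annotation), where each has an exon of its own, of 859 to 954 bases, spliced to the same 4 exons, the first of which runs from 88142766 to 88142897. The ends of the own exons are shown because they are what tells these mRNAs apart, with the last 30 bases of the own coding exon in lower case and the first 30 bases of the shared exon in capitals. Ugt1a6b ends its own exon in the same letters as Ugt1a6a, and Ugt1a2 in the same letters as Ugt1a5.
Ugt1a1: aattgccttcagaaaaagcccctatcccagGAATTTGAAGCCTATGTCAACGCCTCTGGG
Ugt1a6a: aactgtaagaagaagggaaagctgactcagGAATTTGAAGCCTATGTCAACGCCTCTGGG
Ugt1a9: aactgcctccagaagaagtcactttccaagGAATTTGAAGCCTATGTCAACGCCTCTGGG
Ugt1a5: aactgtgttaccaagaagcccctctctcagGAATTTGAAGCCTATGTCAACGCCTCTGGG
Ugt1a10: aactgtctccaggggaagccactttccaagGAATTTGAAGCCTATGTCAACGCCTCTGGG
The own exon of Ugt1a1 runs from 88139679 to 88140593 and that of Ugt1a9, which lies farther upstream, from 87998450 to 87999400. Past the junction, the 7 transcripts were identical over the 1318 bases compared, and the shared exons made up 71.7% of the Ugt1a1 transcript.

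The reads were 150 bases long, so each principal transcript was searched for windows of 150 bases that a transcript of another gene of the same families also holds. None was found for 32 of the 45 genes, and 11 shared at least 20% of their windows. These were the 7 Ugt1a genes, with 56.5% for Ugt1a10 up to 98.1% for Ugt1a6a, and Gstp1 (37.2%), Gstp2 (48.6%), Gsta1 (72.7%) and Gsta2 (25.4%). Ugt2b5 shared 14.3% and Ugt2b38 19.2%, each with the other. How the counting assigned such reads is not given in the sources used here, so the split of the level between these rows is uncertain.

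The FPKM, already scaled to library size, summed to between 673153 and 786188 per mouse. Depth relative to the other libraries, estimated from the lowest values of 51 genes near the limit of detection, ran from 0.937 to 1.019, while the number of reads is not known. This estimate has a ceiling, here 1.019, which many libraries share, and it leaves out values well above the lowest of a gene. It therefore cannot show a library of much lower depth. Fgl1 itself averaged 504 ± 440 FPKM (SD, n = 8) in Fgl1 LWT and 52.0 ± 29.96 FPKM in Fgl1 LKO mice, with no overlap between 157.8 FPKM, the lowest Fgl1 LWT mouse, and 89.99 FPKM, the highest Fgl1 LKO mouse. The source of the Fgl1 level left in Fgl1 LKO mice was not tested. Hepatocyte markers (Alb, Apoa1, Ttr, Serpina1c and Cyp2e1) summed to between 55017 and 95892 FPKM. The 2 of 4 kidney tubule markers with values summed to 0.05 FPKM or below, and T and B cell markers to at most 1.70 FPKM. Gut epithelium markers summed to 17.5 to 70.1 FPKM. Most of this was Fabp2, with means of 45.9 FPKM in Fgl1 LWT and 50.2 FPKM in Fgl1 LKO mice, while Vil1 averaged 0.111 and 0.105 FPKM. Pancreas acinar markers summed to 10.2 to 26.8 FPKM. This was Cela1 alone, as Prss2 and Cpa1 were at 0 in all 16 mice. Neutrophil markers summed to 0.66 to 31.9 FPKM. Mice differed in the acute phase response, the switch of the liver towards secretion of inflammation proteins. The serum amyloid gene Saa1 was at 13092 and 16268 FPKM in Fgl1 LWT replicates 5 and 7 and at 63.8 to 1354 FPKM in the other Fgl1 LWT mice, and it spanned 68.4 to 7669 FPKM in Fgl1 LKO mice.

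The levels of the 45 genes ran, in FPKM, from Gstp1 with a mean of 5706 FPKM to Ugt1a2 with 0.102 FPKM. Together they made up 2.02% ± 0.17 (SD, n = 8) of all FPKM in Fgl1 LWT and 1.93% ± 0.24 (SD, n = 8) in Fgl1 LKO mice. The cytosolic GSTs and Gstk1 summed to 9190 ± 1330 FPKM (SD, n = 8) in Fgl1 LWT mice, the MGSTs to 3095 ± 415, the UGT2 genes to 1448 ± 277, the SULTs to 576 ± 140 and the UGT1 genes to 316 ± 44.6. A few genes carried each class. Gstp1 and Mgst1, with means of 5706 and 3108 FPKM, stood far above the rest, Gsta3 came next with 1096 FPKM and Gstm1 after it with 948 FPKM. Another 16 symbols lay below the mean of 0.1 FPKM, 8 of them at 0 in all 16 mice, and 11 of the 16 are sulfotransferases of the Sult2a, Sult2b, Sult3, Sult4 and Sult6 groups. Among them Sult2a1, an enzyme of bile acid and steroid sulfation known from female mouse liver, was above 0 in 2 mice and never above 0.08 FPKM.

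**Figure D1:**
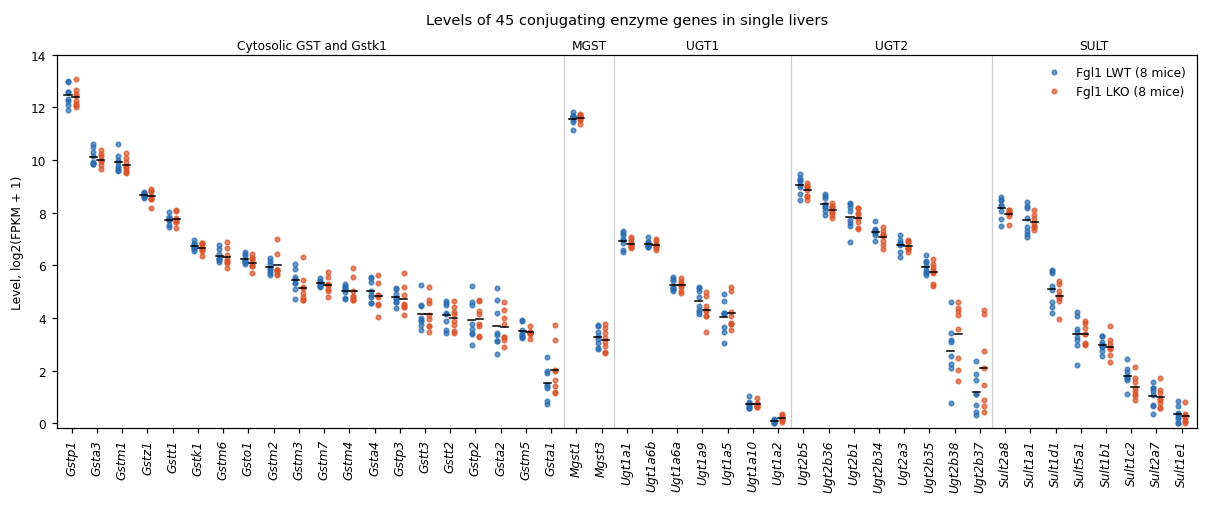
Level of each of the 45 genes in each mouse, as log2(FPKM + 1), grouped by enzyme class and ordered by mean level; each point is 1 mouse and the black lines are genotype means. Gstp1 and Mgst1 are highest, the genotypes overlap in every gene, and Ugt2b37 and Ugt2b38 spread most.

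The comparison of Fgl1 LKO with Fgl1 LWT mice asks whether loss of the hepatocyte protein changed liver transcription. No conjugation gene passed the test. With limma on log2(FPKM + 1) and Benjamini-Hochberg adjustment over all 12770 genes tested, 0 of the 45 had an adjusted p under 0.05, as did 0.0% of all genes. Fgl1 itself, the deleted gene, whose groups did not overlap, did not pass either. The test can therefore miss a large change, and a count of 0 does not show that levels were unchanged. In none of the 45 did the genotypes fail to overlap, against 0.0157% of all genes. At an unadjusted p under 0.05, Ugt1a2 alone was higher in Fgl1 LKO mice (4.64% of all genes were) and Sult1c2 alone was lower (2.36% of all genes were), and an exact rank-sum test gave 0 members at that level. Mean log2 levels were lower in Fgl1 LKO mice for 33 of the 45 genes, or 73.3%, against 44.2% of all genes. The median difference of the 45, Fgl1 LKO minus Fgl1 LWT, was -0.06 on the log2 scale, beside 0.01 over all genes, and the members are correlated between mice, so that they are not independent of each other. Without Fgl1 LWT replicates 5 and 7, chosen as an alternative after seeing the data, the median was -0.10 and 5 genes had an unadjusted p under 0.05, all lower (Ugt2b34, Ugt2b5, Ugt2b36, Sult1c2 and Sult2a8; 5.15% of all genes were lower at that level in the same fit), while the adjusted count was again 0. Without Fgl1 LWT replicate 7 alone, the same 5 were lower (2.98% of all genes were) and Ugt1a2 was higher. The median was nearer 0 under other choices, at -0.02 without Fgl1 LKO replicate 8. The mouse numbers in the library names were also grouped, for this report, into 4 runs. A run of 3 Fgl1 LWT mice numbered 36 to 38 holds no Fgl1 LKO mouse. The median was -0.02 without those mice and -0.03 with the runs as a term. The labels name no such runs, and other groupings were not tried. No marker gene of a cell type had an adjusted p under 0.05 for genotype. All 5 hepatocyte markers had a lower mean log2 level in Fgl1 LKO mice, with a median difference of -0.15, and their sum spanned 59876 to 95892 FPKM in Fgl1 LWT and 55017 to 77860 FPKM in Fgl1 LKO mice. All 5 Kupffer cell markers had a higher one, with a median of 0.25 and sums of 51.7 to 108 and 63.3 to 137 FPKM. Of these, Adgre1 and Vsig4 had an unadjusted p under 0.05. The 5 cholangiocyte markers kept also all had a higher mean log2 level, with a median of 0.22, and 0 of them had an unadjusted p under 0.05. The part of these cell type markers in the members' differences was not tested.

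**Figure D2:**
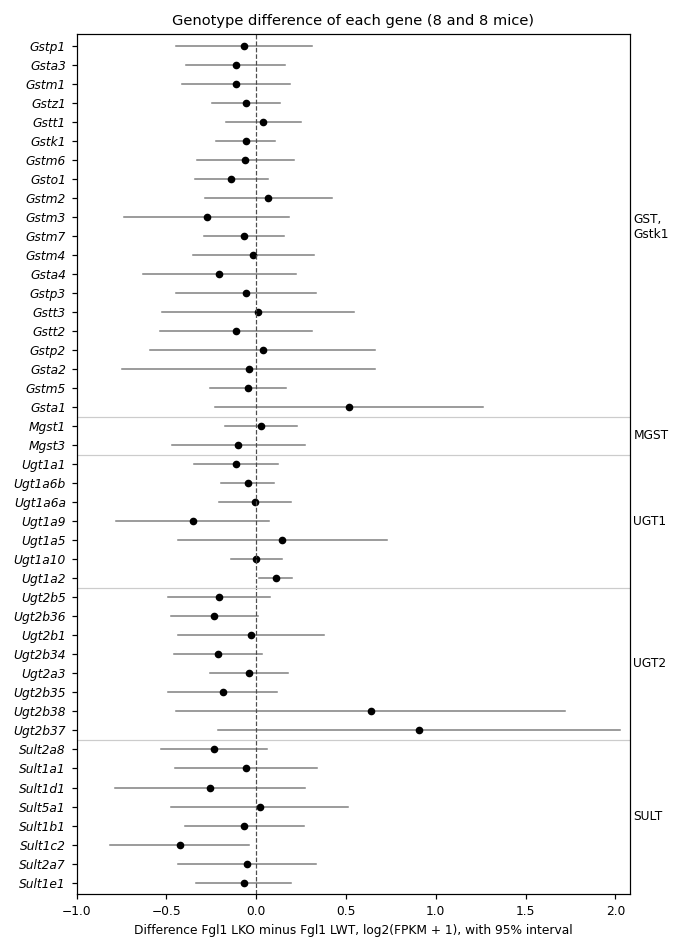
Difference between Fgl1 LKO and Fgl1 LWT mice for each gene on the log2(FPKM + 1) scale (point) with its 95% interval from limma (line), 8 mice per genotype. Only the intervals of Sult1c2, below 0, and Ugt1a2, above 0, leave out 0, and neither gene passed the adjusted threshold.

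Sult1c2, a sulfotransferase of phenols, had 1.13, 2.38 and 4.41 FPKM in the lowest, median and highest Fgl1 LWT mouse and 0.82, 1.43 and 3.45 FPKM in Fgl1 LKO mice. Most Fgl1 LKO mice were in the lower part of the Fgl1 LWT range, and replicate 3 stood in its upper part. The mean fell from 2.59 ± 0.95 to 1.69 ± 0.85 FPKM (SD, n = 8 each), a log2 difference of -0.43 with a 95% interval of -0.81 to -0.04 (limma adjusted p = 0.696). A two-sided exact permutation test over the 12870 assignments of the mice gave p = 0.0536. Ugt1a2, whose first exon is closest in position to that of Ugt1a1, lay near the lowest value the table can show, with 0.00, 0.065 and 0.13 FPKM in Fgl1 LWT and 0.04, 0.14 and 0.26 FPKM in Fgl1 LKO mice. The groups overlapped, 2 Fgl1 LWT mice were at 0, and 74.4% of its windows are shared with other Ugt1a genes. Its log2 difference was 0.11 with an interval of 0.01 to 0.20 (limma adjusted p = 0.696; exact permutation test, two-sided, p = 0.0225).

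Among the cytosolic GSTs, 15 of 20 genes had a lower mean log2 level in Fgl1 LKO mice, and none passed the test. Gstp1, the pi-class enzyme that dominates in male mouse liver, had 3845, 5639 and 8320 FPKM in the lowest, median and highest Fgl1 LWT mouse and 4180, 5193 and 8732 FPKM in Fgl1 LKO mice. The ranges covered each other almost entirely, and the difference was -0.07 with a 95% interval of -0.45 to 0.31 on the log2 scale. Gsta3, an alpha-class enzyme known for detoxifying the epoxide of aflatoxin, had 922, 1049 and 1575 FPKM in Fgl1 LWT and 808, 1008 and 1322 FPKM in Fgl1 LKO mice. Replicates 1 to 3 of Fgl1 LWT were its highest libraries of that genotype, with 1260, 1575 and 1433 FPKM, and the interval of its difference ran from -0.39 to 0.16. Gstm1, the most abundant mu-class enzyme, spanned 775 to 1544 FPKM in Fgl1 LWT and 723 to 1231 FPKM in Fgl1 LKO mice, with an interval of -0.41 to 0.19. Gstz1, the isomerase of tyrosine breakdown, was at 410 ± 23.3 and 398 ± 62.6 FPKM (SD, n = 8 each), and Gstk1, which sits in mitochondria and peroxisomes, was at 105 ± 9.95 and 101 ± 11.9 FPKM. Of the MGSTs, which are membrane proteins, Mgst1 had 2283, 3201 and 3659 FPKM in Fgl1 LWT and 2659, 3187 and 3453 FPKM in Fgl1 LKO mice, a difference of 0.03 with an interval of -0.17 to 0.23. Mgst3 was at 8.92 ± 2.47 and 8.34 ± 2.69 FPKM (SD, n = 8 each).

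For the Ugt1a locus, Ugt1a1, the enzyme that glucuronidates bilirubin, had 88.8, 124 and 156 FPKM in the lowest, median and highest Fgl1 LWT mouse and 99.1, 110 and 134 FPKM in Fgl1 LKO mice. The Fgl1 LKO mice lay inside the Fgl1 LWT range, and the interval of the log2 difference was -0.35 to 0.12. Ugt1a6b and Ugt1a6a, which conjugate planar phenols, stood at 112 ± 10.6 and 109 ± 10.6 FPKM and at 37.3 ± 5.70 and 37.1 ± 4.90 FPKM (SD, n = 8 each; Fgl1 LWT first). Ugt1a9, another enzyme of phenols, had 25.2 ± 7.54 and 19.7 ± 6.66 FPKM, a difference of -0.35 with an interval of -0.78 to 0.07. Ugt1a10 stayed at 0.649 and 0.646 FPKM in the mean. When the Ugt1a rows were summed to 1 row before the fit, and likewise the Gstp, the Sult2a and the Gsta1 and Gsta2 rows, 0 of the 35 remaining rows had an adjusted p under 0.05.

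Within UGT2, 6 of 8 genes had a lower mean log2 level in Fgl1 LKO mice and the class median was -0.11. Ugt2b5, the most abundant UGT and a liver enzyme of steroids and drugs, had 354, 556 and 707 FPKM in the lowest, median and highest Fgl1 LWT mouse and 354, 484 and 564 FPKM in Fgl1 LKO mice. Fgl1 LKO replicate 8 and Fgl1 LWT replicate 7 were lowest, and 4 Fgl1 LWT mice exceeded every Fgl1 LKO mouse. Ugt2b36 followed the same order of groups, with 241, 312 and 421 FPKM against 221, 280 and 329 FPKM. Its log2 difference of -0.23 had an interval of -0.48 to 0.01 (limma adjusted p = 0.6996; exact permutation test, two-sided, p = 0.0794). Ugt2b34 was at 156 ± 23.4 and 136 ± 25.5 FPKM (SD, n = 8 each) and Ugt2b1 at 241 ± 76.6 and 229 ± 49.0 FPKM, the latter with an interval of -0.44 to 0.38. Ugt2b37 and Ugt2b38 were the 2 UGT2 genes with a higher mean in Fgl1 LKO mice.

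Of the SULTs, 7 of 8 had a lower mean log2 level in Fgl1 LKO mice. Sult2a8, a sulfotransferase of bile acids in mouse liver, had 178, 307 and 390 FPKM in Fgl1 LWT and 182.5, 255 and 272 FPKM in Fgl1 LKO mice. Fgl1 LWT mice reached both the highest and the lowest level, and the difference was -0.23 with an interval of -0.53 to 0.06 (limma adjusted p = 0.718; exact permutation test, two-sided, p = 0.147). Sult1a1, the main phenol sulfotransferase, had 133, 197 and 340 FPKM in Fgl1 LWT and 162, 187 and 273 FPKM in Fgl1 LKO mice. The 3 Fgl1 LWT mice numbered 36 to 38 were its highest libraries, at 306, 340 and 287 FPKM, and the remaining Fgl1 LWT mice were at 133 to 222 FPKM. Its difference was -0.06 as tested and 0.31 with the run of numbers as a term (limma adjusted p = 0.612), so its direction depends on those mice. Sult1d1, which acts on catecholamines, was at 36.3 ± 15.9 and 28.8 ± 8.31 FPKM (SD, n = 8 each). Sult1e1, the estrogen sulfotransferase, averaged 0.283 and 0.216 FPKM and was at 0 in 3 mice.

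The 6 genes with the widest spread within genotypes, among those with a mean of at least 1 FPKM, were Ugt2b37, Ugt2b38, Gsta1, Gsta2, Gstp2 and Ugt1a5. Ugt2b37 had 0.23, 1.15 and 4.10 FPKM in the lowest, median and highest Fgl1 LWT mouse and 0.36, 2.49 and 18.75 FPKM in Fgl1 LKO mice. Fgl1 LKO replicates 7 and 8, with 18.75 and 16.56 FPKM, stood far above the rest, and the other 6 Fgl1 LKO mice lay between 0.36 and 5.76 FPKM. The mean was 3.88 times as high in Fgl1 LKO mice, while the log2 difference of 0.91 had an interval of -0.21 to 2.02 (exact permutation test, two-sided, p = 0.157). The same 2 mice were highest in Gsta1, an alpha-class GST, at 8.05 and 12.35 FPKM, where Fgl1 LWT mice spanned 0.65 to 4.70 FPKM. Fgl1 LKO replicate 8 also had 255 FPKM of the cholangiocyte marker Spp1, against 20.9 to 76.3 FPKM in the other 15 mice. Epcam was also highest in that mouse, at 3.35 FPKM. Krt7, Krt19 and Sox9 were at 0.43, 1.83 and 0.90 FPKM there, inside the range of the other mice. The 5 cholangiocyte markers kept summed to 24.7 to 56.1 FPKM in Fgl1 LWT and 29.0 to 262 FPKM in Fgl1 LKO mice. Spp1 made up nearly all of the highest sum. The part of these markers in the levels of Ugt2b37 and Gsta1 was not tested.

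Ugt2b38 ranged from 0.71 to 23.55 FPKM in Fgl1 LWT and from 2.01 to 23.56 FPKM in Fgl1 LKO mice. High mice occurred in both genotypes, and Fgl1 LWT replicate 6 and Fgl1 LKO replicate 2 were almost equal. Gsta2, whose transcription is known to respond to electrophiles, ranged from 5.12 to 33.85 FPKM in Fgl1 LWT and from 6.50 to 23.08 FPKM in Fgl1 LKO mice, and Gstp2 from 6.87 to 35.96 and from 8.65 to 24.88 FPKM. Ugt1a5 was highest in Fgl1 LKO replicates 3 and 4, at 35.54 and 31.95 FPKM, while the other 6 Fgl1 LKO mice were at 10.73 to 17.89 FPKM. Fgl1 LWT mice spanned 7.33 to 28.95 FPKM in that gene, and the intervals of the genotype difference of all 4 genes included 0.

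**Figure D3:**
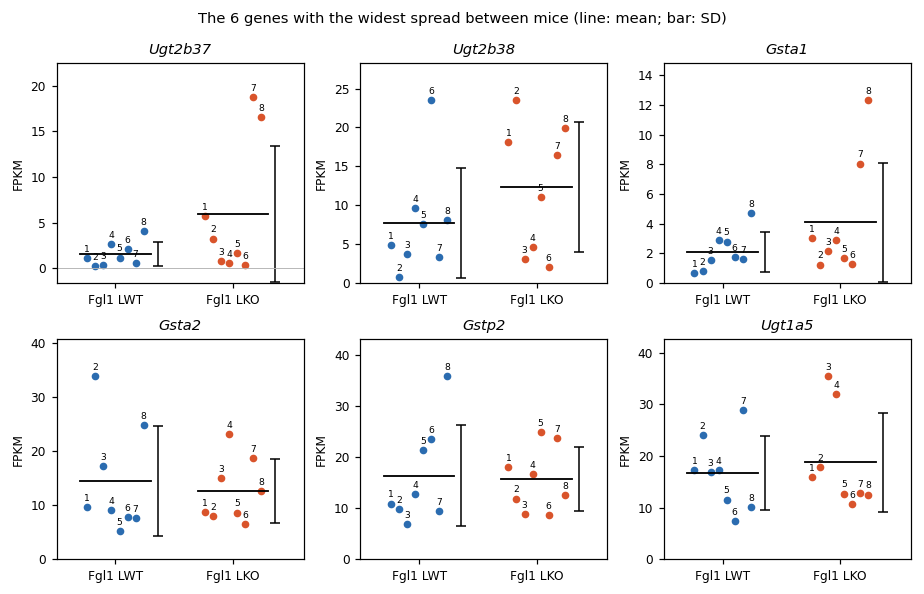
FPKM of the 6 genes with the widest spread in each mouse, numbered by replicate, with the genotype mean (line) and SD (bar), n = 8. Fgl1 LKO replicates 7 and 8 lead in Ugt2b37 and Gsta1, and high mice occur in both genotypes for the other 4 genes.

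The mice were next ordered by an acute-phase score, the mean z-score of 16 acute-phase genes, among them Saa1, Saa2, Orm1, Hp and Lcn2. Inflammatory cytokines raise these genes, most of which encode secreted proteins, and are known to lower many drug-metabolising enzymes. The score ran from -0.90 to 1.64 in Fgl1 LWT and from -1.02 to 1.26 in Fgl1 LKO mice. Its mean, -0.08 and 0.08, did not differ by genotype beyond its spread (exact permutation test, two-sided, p = 0.732). The median was -0.48 in Fgl1 LWT and 0.15 in Fgl1 LKO mice, and the part of this in the genotype differences was not tested. In a limma fit of genotype plus score, 1 of the 45 genes, Ugt2a3, fell with the score at an adjusted p under 0.05 (2.89% of all genes did), and 0 rose (1.27% of all genes did). At an unadjusted p under 0.05, 19 genes, or 42.2%, had a slope below 0 (17.9% of all genes), and 0 had a slope above 0 (4.99% of all genes). A slope below 0 of any size was seen in 35 of 45, or 77.8%, against 67.0% of all genes. The median slope of the 45 was -0.13 on the log2 scale per unit of score, beside -0.03 over all genes.

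The 19 genes came from each class but the MGSTs. They were Gsta2, Gsta3, Gstk1, Gstm1, Gstm6, Gstm7, Gsto1, Gstt1, Gstt3 and Gstz1 of the GSTs, Ugt1a1, Ugt1a6a and Ugt1a6b of the Ugt1a locus, Ugt2a3, Ugt2b1 and Ugt2b36 of UGT2, and Sult1b1, Sult1c2 and Sult2a8 of the SULTs. Gstp1, with a slope of 0.05 and an interval of -0.17 to 0.27, and Mgst1, with 0.02 and an interval of -0.10 to 0.13, the 2 most abundant genes, were not among them. The count depended on scaling and on the mice. With median-ratio scaling it was 9, or 20% beside 9.31% of all genes, and no gene had an adjusted p under 0.05. Without Fgl1 LWT replicates 5 and 7, the 2 mice farthest from the median score, it was 15, or 33.3% beside 14.3% of all genes, and again no gene passed. Leaving out Fgl1 LWT replicate 5 alone also left no gene past the adjusted threshold. With quantile normalization, and with Saa1 alone as the score, the 1 gene that passed was Gstm1 and not Ugt2a3. The acute-phase genes took 1.02% to 9.86% of all FPKM, and Alb (slope -0.23, limma adjusted p = 0.0356) and the sinusoidal endothelial markers Stab2, Clec4g, Oit3 and Kdr (4 of 5 with a limma adjusted p under 0.05) also fell with the score, while the neutrophil genes S100a8 and S100a9 rose. The part of these in the slopes was not tested. Of the other neutrophil markers, Ly6g was at 0 in 14 mice and Mpo at 0 in 9 mice. Both lay below the mean of 0.1 FPKM and were left out of this fit, so whether they rose with the score was not tested.

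The 6 genes with the smallest p-values in that fit are given by mouse. Ugt2a3, a UGT of the 2A group, was lowest among Fgl1 LWT mice in replicates 5 and 7, at 79.2 and 90.1 FPKM, and the other Fgl1 LWT mice had 109 to 142 FPKM. In Fgl1 LKO mice it ran from 124 FPKM in replicate 4, with a score of -0.84, to 89.9 FPKM in replicate 8, with a score of 0.98. Its slope was -0.19 ± 0.04 (SE; limma adjusted p = 0.0179). Over the 8 Fgl1 LKO mice, Pearson's r was -0.86 (exact permutation p = 0.00841, adjusted over 6 genes 0.0252) and Spearman's rho was -0.74 (exact permutation p = 0.0458, adjusted 0.115), and r was -0.94 without the 2 mice farthest from the median. Over the 6 Fgl1 LWT mice of low score, r was 0.64 and rho 0.49 (exact permutation p = 0.119 and 0.356), so that in Fgl1 LWT the relation rested on replicates 5 and 7.

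Gstt1, a theta-class enzyme that acts on small halogenated compounds, followed the score most closely in Fgl1 LKO mice. It fell from 274 FPKM in replicate 3, the mouse of lowest score, to 171 FPKM in replicate 5, the mouse of highest score, and the order of the 8 mice was the reverse of that of the score. Pearson's r was -0.95 (exact permutation p = 7.44e-05, adjusted 0.000446) and rho was -1 (exact permutation p = 4.96e-05, the smallest these mice can give, adjusted 0.000298). Without replicates 3 and 5, r was -0.88. Among the 6 Fgl1 LWT mice of low score, r was -0.22 and rho -0.37 (exact permutation p = 0.646 and 0.497). The slope over all mice was -0.15 ± 0.04 (SE; limma adjusted p = 0.0629), and the test of a difference in slope between genotypes gave an unadjusted limma p of 0.0352 and an adjusted p of 0.572.

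Gsta3 ranged from 922 to 1575 FPKM in the 6 Fgl1 LWT mice of low score. The 3 of them with the lowest scores, replicates 1 to 3, are the run of mouse numbers 36 to 38 and were the 3 highest in Gsta3, so run and score cannot be told apart in these mice. Over the 6, r was -0.86 and rho -0.77 (exact permutation p = 0.0403 and 0.103, adjusted 0.242 and 0.350), and over the 8 Fgl1 LKO mice r was -0.65 and rho -0.71 (exact permutation p = 0.0795 and 0.0576, adjusted 0.119 and 0.115). Gstm6, a mu-class GST, was highest among Fgl1 LKO mice in replicates 3 and 4, at 100 and 116 FPKM, whose scores were the lowest of that genotype, and the other Fgl1 LKO mice were at 59.2 to 82.2 FPKM. Sult1c2 was lowest among Fgl1 LWT mice in replicate 5, at 1.13 FPKM, the mouse with the highest score of all. Sult2a8 was lowest among Fgl1 LWT mice in replicates 7 and 5, at 178 and 218 FPKM, and r over the remaining 6 was 0.25 and rho 0.14 (exact permutation p = 0.585 and 0.803), so this relation also rested on those 2 mice. These 6 genes were chosen by their slope over the same 16 mice, so their correlations describe that slope by genotype and are no separate evidence for it.

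**Figure D4:**
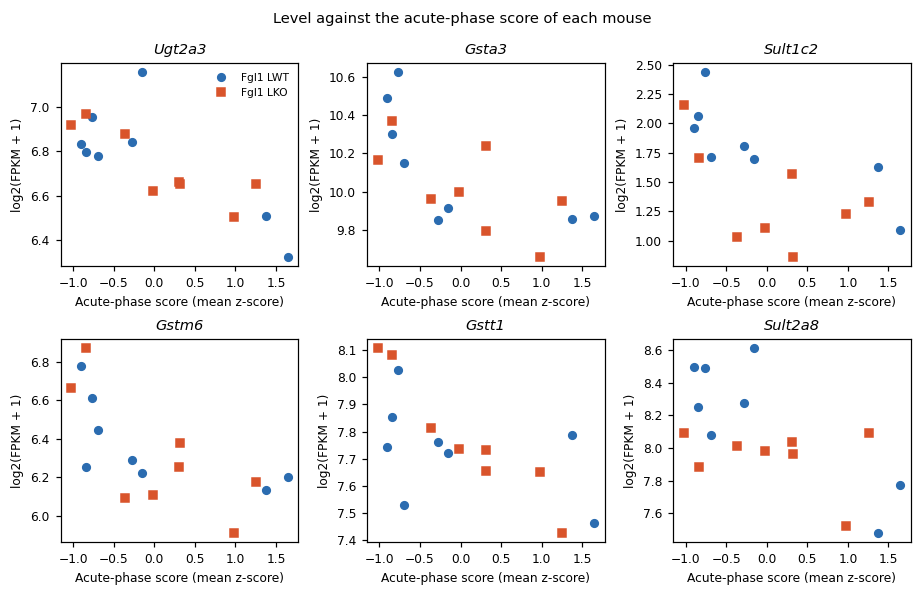
Level of the 6 genes with the smallest slope p-values, as log2(FPKM + 1), against the acute-phase score of each mouse (circles Fgl1 LWT, squares Fgl1 LKO). The 2 Fgl1 LWT mice with scores of 1.64 and 1.37 lie at the right of each panel, and Gstt1 declines in order of the score among Fgl1 LKO mice.

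Livers that were high in some of these genes were high in others. Over the 990 pairs of genes, the median correlation of deviations from the genotype mean, across the 16 mice, was 0.23, and 70.1% of pairs were above 0. The points share libraries and scaling, so this is a description. Pairs of other genes were not measured, so it is not shown to be particular to these genes. The closest pairs were Gstz1 with Gstk1 (r = 0.90), Sult1b1 with Gstm7 (0.89) and the neighbouring genes Ugt2b5 and Ugt2b36 (0.87). Fgl1 LKO replicates 3 and 4, the low-score mice of that genotype, were the 2 highest Fgl1 LKO mice in Gstm2, Gstm3, Gstt3 and Ugt1a5, and Fgl1 LKO replicate 8 was lowest of all 16 mice in Gstz1 (286 FPKM), Gstk1 (80.7 FPKM), Gstm7 (27.0 FPKM) and Sult1b1 (3.97 FPKM).

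**Figure D5:**
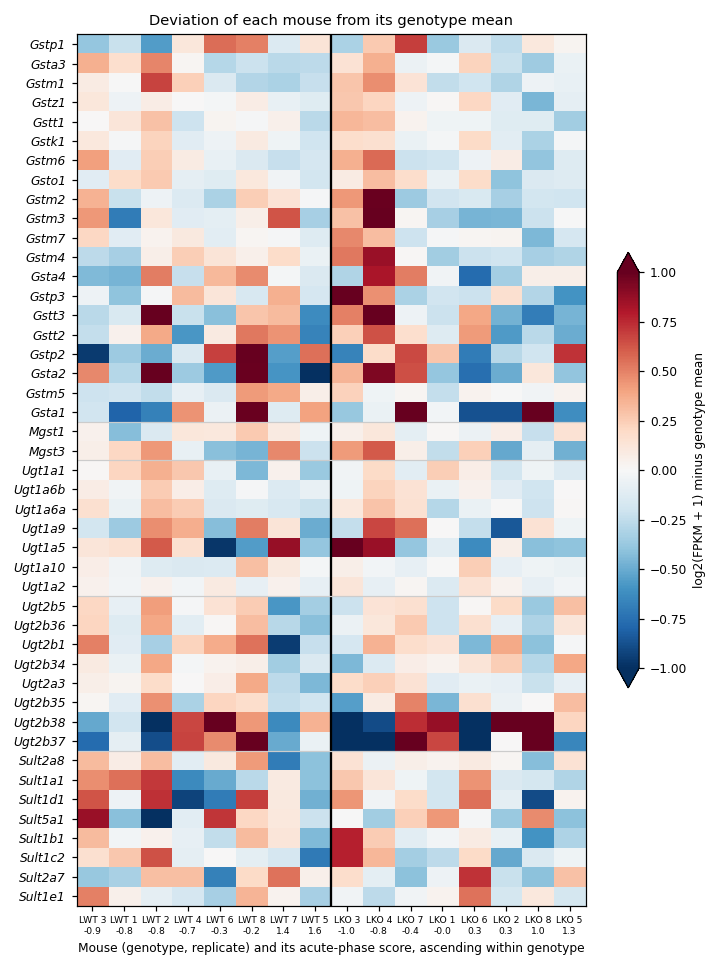
Deviation of each mouse from its genotype mean on the log2(FPKM + 1) scale for the 45 genes (red above, blue below, colours end at 1 and -1), with mice ordered by acute-phase score within each genotype. Low-score Fgl1 LKO replicates 3 and 4 are red in many GST rows, and Ugt2b37 and Ugt2b38 show the strongest colours in mice of both genotypes.

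Promoters of 41 of the 45 genes were found in RefSeq sequence (GRCm38.p6), covering 250 bases before to 50 bases after each start. Motif letters were searched on both strands. The HNF1 letters TTAATNATT were present in the promoters of 9 genes, 8 of them among the 14 UGT genes with a promoter (Ugt1a1, Ugt1a5, Ugt1a9, Ugt1a10, Ugt2b5, Ugt2b35, Ugt2b37 and Ugt2b38) and the other in Sult1d1, but in none of 20 GST and MGST genes, and 1.47% of all 32851 promoters of that length hold them. HNF1 is a liver transcription factor known at UGT genes. The C/EBP letters TTGCNNAA were in 11 genes (10.8% of all promoters hold them), namely Gsta3, Gstm2, Gstp3, Gstt1, Mgst1, Sult1c2, Sult2a8, Ugt2a3, Ugt2b1, Ugt2b36 and Ugt2b5, the antioxidant response element letters TGACNNNGC in 4 (12.4%), the STAT letters TTCNNNGAA in 4 (8.30%) and the HNF4 letters CAAAGTCCA in 1 (0.475%). These genes had 51 promoters of that length. Of the 51, 17.65% held the HNF1 letters and 21.57% the C/EBP letters. The antioxidant response element letters were in 7.84% of them, the STAT letters in 7.84% and the HNF4 letters in 1.96%. A match of letters is a description and not a bound site. The promoters of Ugt2a3, the gene that passed the score test, of Ugt2b5 and Ugt2b36, which moved together, and of Ugt1a1 are printed in gene direction, with HNF1 and C/EBP matches in capitals.
Ugt2a3, minus strand, chr5:87337146-87337445: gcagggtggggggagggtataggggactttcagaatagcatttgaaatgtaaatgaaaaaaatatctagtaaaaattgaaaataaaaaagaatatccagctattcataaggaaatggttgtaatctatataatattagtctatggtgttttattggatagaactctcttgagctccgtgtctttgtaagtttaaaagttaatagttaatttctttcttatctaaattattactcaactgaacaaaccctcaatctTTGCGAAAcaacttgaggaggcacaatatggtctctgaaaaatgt
Ugt2b5, minus strand, chr5:87140291-87140590: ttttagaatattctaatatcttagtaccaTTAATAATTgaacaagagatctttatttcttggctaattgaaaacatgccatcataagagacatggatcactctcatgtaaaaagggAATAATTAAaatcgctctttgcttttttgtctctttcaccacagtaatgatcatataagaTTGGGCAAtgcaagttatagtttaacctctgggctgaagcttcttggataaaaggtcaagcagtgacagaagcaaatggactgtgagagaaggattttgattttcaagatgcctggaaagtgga
Ugt2b36, minus strand, chr5:87092506-87092805: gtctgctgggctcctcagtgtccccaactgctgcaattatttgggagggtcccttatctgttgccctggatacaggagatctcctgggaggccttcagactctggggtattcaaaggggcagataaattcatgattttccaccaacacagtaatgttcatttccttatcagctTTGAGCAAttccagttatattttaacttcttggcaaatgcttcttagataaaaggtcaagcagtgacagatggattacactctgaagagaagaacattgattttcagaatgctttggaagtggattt
Ugt1a1, plus strand, chr1:88211709-88212008: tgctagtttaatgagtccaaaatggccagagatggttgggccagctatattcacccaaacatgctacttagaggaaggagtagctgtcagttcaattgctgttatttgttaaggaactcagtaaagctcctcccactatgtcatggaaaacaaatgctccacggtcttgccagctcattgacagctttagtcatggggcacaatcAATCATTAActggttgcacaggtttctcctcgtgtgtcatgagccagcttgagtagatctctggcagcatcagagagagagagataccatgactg
In Ugt2b5 and Ugt2b36, the C/EBP letters began 74 and 77 bases before the annotated start, and in Ugt1a1 the HNF1 letters began 45 bases before it.

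The supply of cosubstrates was described from lists of genes. No gene of any list had an adjusted p under 0.05 for genotype in the limma fit. The genotype calls named from the lists are at an unadjusted p under 0.05, a level at which 4.64% of all genes were higher and 2.36% lower in Fgl1 LKO mice, and at the same unadjusted level 17.9% of all genes had a slope below 0 with the score. Of 14 glutathione supply genes, Chac2, which breaks down glutathione, was lower at an unadjusted p under 0.05, with 17.9 ± 3.59 FPKM in Fgl1 LWT and 14.2 ± 3.15 in Fgl1 LKO mice (SD, n = 8 each), and 4 had a slope below 0 with the score at that level. Of 5 genes of UDP-glucuronic acid supply none was called for genotype and 1 had such a slope, and of 10 genes of sulfate donor supply none was called for genotype while Suox, the mitochondrial sulfite oxidase, fell with the score (slope -0.24, limma adjusted p = 0.0270).

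Among 14 genes of conjugate export, Abcb1b was higher in Fgl1 LKO mice at an unadjusted p under 0.05, at 0.303 ± 0.132 and 0.488 ± 0.1996 FPKM (SD, n = 8 each; Fgl1 LWT first). Abcc2, the pump for conjugates into bile, Abcc6 and the uptake carrier Slco1a1 fell with the score (slopes -0.20, -0.20 and -0.30, limma adjusted p = 0.0390, 0.0177 and 0.0112). Among 16 deconjugating and mercapturate genes, Nat8, an N-acetyltransferase, was at 16.4 ± 5.395 and 22.8 ± 4.74 FPKM and its relative Nat8f1 at 269 ± 42.2 and 231 ± 18.7 FPKM (SD, n = 8 each), opposite directions at an unadjusted p under 0.05 (exact permutation tests, two-sided, p = 0.0177 and 0.0239). The carboxylesterase gene Ces1d fell with the score (slope -0.30, limma adjusted p = 0.0328). Among 16 other conjugating and hydrating enzymes none was called for genotype, and the epoxide hydrolases Ephx1 and Ephx2 fell with the score (slopes -0.22 and -0.19, limma adjusted p = 0.0191 and 0.00611).

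The regulators and their known targets were sorted the same way. Of 18 NRF2 targets, Txnrd1 was higher in Fgl1 LKO mice at an unadjusted p under 0.05, at 38.1 ± 3.13 and 48.0 ± 12.5 FPKM (SD, n = 8 each). Of 17 CAR and PXR targets, Por, the electron donor of cytochromes P450, was higher, at 55.1 ± 10.7 and 76.2 ± 14.7 FPKM (limma adjusted p = 0.696; exact permutation test, two-sided, p = 0.00668), and Cyp2c50 fell with the score (slope -0.29, limma adjusted p = 0.0358). None of 5 AHR targets was called in either fit at the adjusted threshold. Of 25 regulators, Mafk, a small partner of NRF2, and Nfil3 were higher at an unadjusted p under 0.05, at 4.26 ± 0.51 and 5.61 ± 1.28 FPKM and at 25.9 ± 5.30 and 32.5 ± 7.53 FPKM (SD, n = 8 each), and Cebpa, which encodes a C/EBP factor of the mature hepatocyte, fell with the score (slope -0.25, limma adjusted p = 0.0225). Of 13 female-biased genes 1, Trim24, and of 20 male-biased genes 0 had an unadjusted p under 0.05 for genotype, and Cyp4a10, Cyp2c40 and Slco1a1 fell and C8a rose with the score at an adjusted p under 0.05. At an unadjusted p under 0.05 for genotype, Sp5 was higher among 16 pericentral genes, and Hal, Hsd17b13 and Hsd17b6 were lower among 15 periportal genes. Hsd17b6 had 58.3 ± 23.5 and 30.9 ± 9.08 FPKM (SD, n = 8 each; limma adjusted p = 0.660). In these lists Slc13a3 and Ctsc rose and Cps1 and Etnppl fell with the score at an adjusted p under 0.05.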

How the data were processed

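RNA from the livers of 8 mice per genotype was sequenced with 150-base paired reads. The authors deposited FPKM values for 17003 genes, rounded to 2 decimals and written with decimal commas. According to the submitters' notes, reads were aligned to mm39 with HISAT and to reference genes with Bowtie2, and versions, counting and annotation release are not given in the sources used here. Read totals are not known, so the error of counting is not given.

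Genotypes were taken from the labels. Levels were analysed as log2(FPKM + 1) for 12770 genes (mean FPKM of 0.1 or more), with limma 3.58.1 in R 4.3.3 (lmFit, eBayes with trend, two-sided, Benjamini-Hochberg over all genes, threshold 0.05), once for genotype and once for genotype plus the acute-phase score. The steps were tested on simulated data. Differences understate changes of low genes. Single genes were compared by exact permutation, whose smallest p is 0.000155. Python 3.11.15, numpy 2.4.6, scipy 1.17.1 and pandas 2.3.3 served for the rest. All 45 genes matched GENCODE on GRCm39, which mm39 names.

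The members and lists were chosen with earlier results of these data known. Genes are named with tests if among the 3 highest of a class, at an unadjusted genotype p under 0.05, among the 6 smallest slope p-values or among the 6 widest spreads, and genes of other lists if past the adjusted threshold or at an unadjusted genotype p under 0.05. Further genes are described only, and were chosen after their values were seen. Lists covered cosubstrate supply, export, deconjugation, other conjugating enzymes, NRF2, CAR, PXR and AHR targets, regulators, sex-biased and zonated genes and cell type markers. Alternatives were other pseudocounts, filters, scalings, weights, blocks, scores and mice left out. Leaving out Fgl1 LWT replicates 5 and 7 together was added after seeing the data.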

Additional observations from a re-analysis of the deposited data

Results flagged for a closer look

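Among 50 groups of 8 mice (25 named genes in 2 genotypes), 1 held a mouse apart from the others of its genotype. Sult2a8 in Fgl1 LKO replicate 8 was at 182.5 FPKM and the next lowest Fgl1 LKO mouse at 235.6 FPKM, a gap of 0.638 of the genotype's range on the log2 scale, above Dixon's 95% limit for 8 samples. Chance puts about 1 in 20 groups past that limit, or 2.5 of 50. The same mouse had the highest level of Spp1, at 255 FPKM, and a score of 0.98, and their part in the Sult2a8 level was not tested.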

How the results depend on the processing

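No gene of the 45 had an adjusted p under 0.05 for genotype under any alternative run. The count at an unadjusted p under 0.05, 2 in the report, was 1 with a minimum mean of 1 FPKM, array weights, a term for the run of mouse numbers, without the run 36 to 38 and with summed rows, 0 with the exact rank-sum test, and 5 without both Fgl1 LWT mice of high score. Leaving out each mouse in turn it ranged from 1 to 6, with 6 without Fgl1 LWT replicate 7, 4 without Fgl1 LKO replicate 4 and 1 without Fgl1 LWT replicate 1, 2, 3 or 8 or Fgl1 LKO replicate 1, 2, 3 or 8. For the acute-phase slope, the count at an adjusted p under 0.05, 1 in the report, was 0 with median-ratio scaling, the replicate block, without the run 36 to 38 and without the 2 mice farthest from the median score, 2 with a minimum mean of 1 FPKM, an equal FPKM sum and robust empirical Bayes, and 13 with array weights, where 2148 of all genes passed. Leaving out each mouse it ranged from 0 to 3, with 0 without Fgl1 LWT replicate 5 and 3 without Fgl1 LWT replicate 7 or 8 or Fgl1 LKO replicate 6 or 7. With quantile normalization, and with Saa1 alone as the score, it stayed at 1, but the gene was Gstm1 and not Ugt2a3. In 7 of the alternatives Ugt2a3 did not pass. The 19 genes with a slope below 0 at an unadjusted p under 0.05 became 9 with median-ratio scaling and 11 with the replicate block, and 13 to 22 with each mouse left out. The cause of these changes was not tested, and neither was the part of the smaller number of mice or genes in some of the fits. The median genotype difference, -0.06, ranged from -0.11 to -0.02 with each mouse left out. Replicate numbers did not pair these mice. Of the 8 same-numbered pairs, 3 had a correlation of deviations over 0.1 (range -0.16 to 0.45) and 2 of 8 mice correlated best with their own number. With the replicate block, 2 genes had an unadjusted genotype p under 0.05.

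Of 25 named genes, 16 changed the sign of their genotype difference under at least 1 alternative, none at an adjusted p under 0.05, and the slopes of the 6 named genes kept their sign in all. The log2 differences of changed sign were -0.048 for Mgst1 with quantile normalization, 0.0034 for Ugt1a6a with an equal sum, 0.013 for Ugt2b1 and 0.018 for Gsta2 with array weights, and 0.017 for Ugt1a6a, 0.0061 for Ugt2b1 and 0.034 for Gsta2 with the score as a covariate. With such a term for the run of mouse numbers they were 0.065 for Gsta3, 0.023 for Gstm1, -0.089 for Mgst1, 0.063 for Mgst3, 0.013 for Ugt1a6b, 0.062 for Ugt1a6a, 0.314 for Sult1a1, 0.048 for Sult1d1, 0.013 for Ugt2a3, 0.0002 for Gstm6, 0.373 for Gsta2 and -0.251 for Gstp2. Without the run 36 to 38 they were 0.088 for Gsta3, 0.037 for Gstm1, -0.076 for Mgst1, 0.040 for Mgst3, 0.0039 for Ugt1a1, 0.011 for Ugt1a6b, 0.076 for Ugt1a6a, 0.286 for Sult1a1, 0.0023 for Sult1d1, 0.010 for Ugt2a3, 0.048 for Gstm6, 0.282 for Gsta2 and -0.327 for Gstp2. With each mouse left out, the ranges were -0.031 to 0.066 for Mgst1, -0.150 to 0.042 for Sult1a1, -0.101 to 0.218 for Gstp2, -0.046 to 0.039 for Ugt1a6a, -0.197 to 0.162 for Gsta2, -0.166 to 0.047 for Ugt2b1, -0.167 to 0.011 for Gstp1, -0.106 to 0.013 for Ugt2a3 and -0.0076 to 0.089 for Gstt1.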
